A study of Mus musculus with 10 samples.

Results

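The AP-1 and immediate early genes examined here were Fos, Fosb, Fosl1, Fosl2, Jun, Junb, Jund, Egr1, Egr2 and Atf3, 10 genes chosen by name from the 21729 genes of the protein-coding expression table. They were measured by RNA-seq in mouse digit tip blastemas, the cell masses that form on an amputated digit. The 4 groups were ΔLARM1/2 mutants at 12 days post amputation (dpa, 3 libraries, age 33 days), wild type at 12 dpa (2 libraries, age 33 days), mutants at 14 dpa (3 libraries, age 35 days) and wild type at 14 dpa (2 libraries, age 35 days). All animals had a mixed CD1 and C57Bl/6 background, every digit had been amputated, and each library pooled 6 central hindlimb digits. ΔLARM1/2 removes enhancers active in the limb that belong to Lmx1b, the homeobox gene that gives the dorsal side of the limb its identity, and the study asked what the loss of limb Lmx1b does to digit tip regeneration. The labels do not say how many animals stood behind a pool, and no unamputated digit was analysed here.

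AP-1 is a dimeric transcription factor built from a Jun protein paired with a Fos, ATF or Maf protein through a leucine zipper. Many of its genes are immediate early genes, which are transcribed within minutes of a growth factor, stress or wounding signal because MAP kinases activate factors already bound at their promoters, such as SRF with its ternary complex partners at CArG boxes and CREB or ATF proteins at cyclic AMP response elements (CRE). In skin, AP-1 and the zinc finger factors of the Egr family are known for roles in keratinocyte proliferation and differentiation and in the wound response.

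Promoter stretches of 3 members are shown because Jun and Egr2 were the members whose mutant and wild type libraries separated the same way on both days, and Fos the member whose libraries separated in opposite directions. Each gives the 150 bases before an annotated RefSeq start site on build GRCm38.p6. Capitals mark a variant AP-1 site (TGACATCA) in Jun, the CRE core (TGACG, or CGTCA on the other strand) in Egr2 and Fos, and a CArG box in Egr2.
Jun, chr4:95052223-95052372, minus strand: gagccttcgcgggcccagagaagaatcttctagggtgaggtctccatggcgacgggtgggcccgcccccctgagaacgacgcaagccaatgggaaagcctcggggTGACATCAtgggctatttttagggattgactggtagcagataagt
Egr2, chr10:67537719-67537868, plus strand: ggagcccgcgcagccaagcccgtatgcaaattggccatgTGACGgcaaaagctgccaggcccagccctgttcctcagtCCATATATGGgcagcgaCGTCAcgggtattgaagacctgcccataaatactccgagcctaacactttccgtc
Fos, chr12:85473740-85473889, plus strand: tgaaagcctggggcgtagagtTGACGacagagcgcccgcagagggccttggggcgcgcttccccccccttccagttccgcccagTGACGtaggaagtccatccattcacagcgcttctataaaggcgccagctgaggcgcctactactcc

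The search covered 12 RefSeq windows of 8 members, each with 250 bases before and 50 after a start site, and 5 of the windows belonged to Egr2. Egr1 and Fosl1 were left out of the search, so whether their promoters hold these motifs is not known here. The variant AP-1 site of Jun began 45 bases before its start site, and 3.62% of all 32817 windows held these letters on either strand. The CArG box of the Egr2 window shown began 72 bases before the start site, between CRE cores at 111 and 55 bases before it, and 1.63% of all windows held a CArG box. The CRE cores of Fos began 129 and 66 bases before its start site, and 20.8% of all windows held one. Cores were also found for Fosb, Junb and Atf3, and an Egr site (GCGNGGGCG, in 5.56% of all windows) was found for Fosb and Fosl2. The full CRE (TGACGTCA, 1.79% of all windows, which contains the core) and the AP-1 site TGANTCA (7.81% of all windows) were in none of the 12 windows. These matches describe the letters only, and binding was not measured.

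The libraries held 69998104 to 101632364 expected counts, and member counts per library ran from 55 to 477 for Egr2 and from 27619 to 53833 for Fosl2. Lmx1b, the gene whose enhancers were deleted, lay between 0.0278 and 0.336 CPM (counts scaled to library size) in the 6 mutant libraries, against 1.69 to 2.94 CPM in the 4 wild type libraries (log2 fold change −3.98, SE 0.49, adjusted p = 0.000406). Mutant 14 dpa replicate 1 carries a wild type genotype tag against its title; the mutant libraries of that day lay between 0.0278 and 0.234 CPM of Lmx1b, and it was kept as mutant. Placed with wild type as tagged, it left no gene past the threshold on either day or over both, with adjusted p-values over both days of 0.0652 for Jun and 0.218 for Egr2. Mutant 12 dpa replicate 3 and mutant 14 dpa replicate 1 stood apart from their groups for several members, as given below. The annotated gene of Junb overlaps Prdx2 on the opposite strand (mean expected counts 17157 and 18177) and that of Fosl1 overlaps Ccdc85b (293.5 and 1020.5), and no source names the strand setting used in counting, so the values of Junb and Fosl1 are less certain than those of the other members.

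On the TPM scale, which corrects for gene length and sums to a fixed total per library, the members fell into an abundant and a scarce set. Jund had the highest mean over the 10 libraries, 120 TPM (range 70.3 to 162), followed by Junb at 103 TPM (62.0 to 136) and Fosl2 at 73.9 TPM (39.3 to 101). Jun followed at 31.1 TPM (19.8 to 42.6), Egr1 at 18.7 TPM (8.77 to 33.1) and Fos at 12.0 TPM (3.37 to 42.0). The scarce set was Fosb at 3.12 TPM, Fosl1 at 1.91 TPM, Atf3 at 1.44 TPM and Egr2 at 1.197 TPM. Most neighbours in this order kept it from library to library: Junb exceeded Fosl2, Fosl2 exceeded Jun and Fos exceeded Fosb in 10 of 10 libraries, Jun exceeded Egr1 in 9, and Jund exceeded Junb and Egr1 exceeded Fos in 8. The lowest neighbours did not keep it, since Fosb exceeded Fosl1 in 7 libraries, Fosl1 exceeded Atf3 in 7 and Atf3 exceeded Egr2 in 5. TPM levels of whole libraries shifted against each other, because protein-coding genes held 42.0% to 52.8% of all TPM in the mutant libraries and 27.7% to 49.5% in the wild type libraries, with the lowest shares in wild type at 14 dpa. Comparisons between libraries therefore use CPM scaled by TMM factors, or ratios of 2 genes within a library.

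Within the Fos family, Fosl2 (Fra-2), a family member without the strong transactivation domain of Fos, supplied most of the transcripts in every library, 62.1% to 87.7% of the summed TPM in mutants and 75.7% to 91.1% in wild type. Fos supplied 7.52% to 29.4% in mutants and 3.54% to 18.7% in wild type, and its highest share was in mutant 12 dpa replicate 3. Within the Jun family, Jund and Junb together made up the bulk. Jun itself contributed 12.3%, 11.7% and 10.7% in the mutant 12 dpa libraries, against 16.6% and 13.7% in wild type at 12 dpa. At 14 dpa its share was 10.3%, 9.63% and 7.80% in mutants, against 17.7% and 14.6% in wild type. All 6 mutant libraries thus lay below all 4 wild type libraries in the Jun share, which does not depend on the scaling between libraries. The ratio of Jun to Junb TPM was 0.191 to 0.314 in mutants and 0.338 to 0.460 in wild type, also without overlap. Jun and Junb enter both measures, so these are not independent of each other. Both measures fall where Junb rises, and Junb is less certain because of its overlap with Prdx2.

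**Figure D1:**
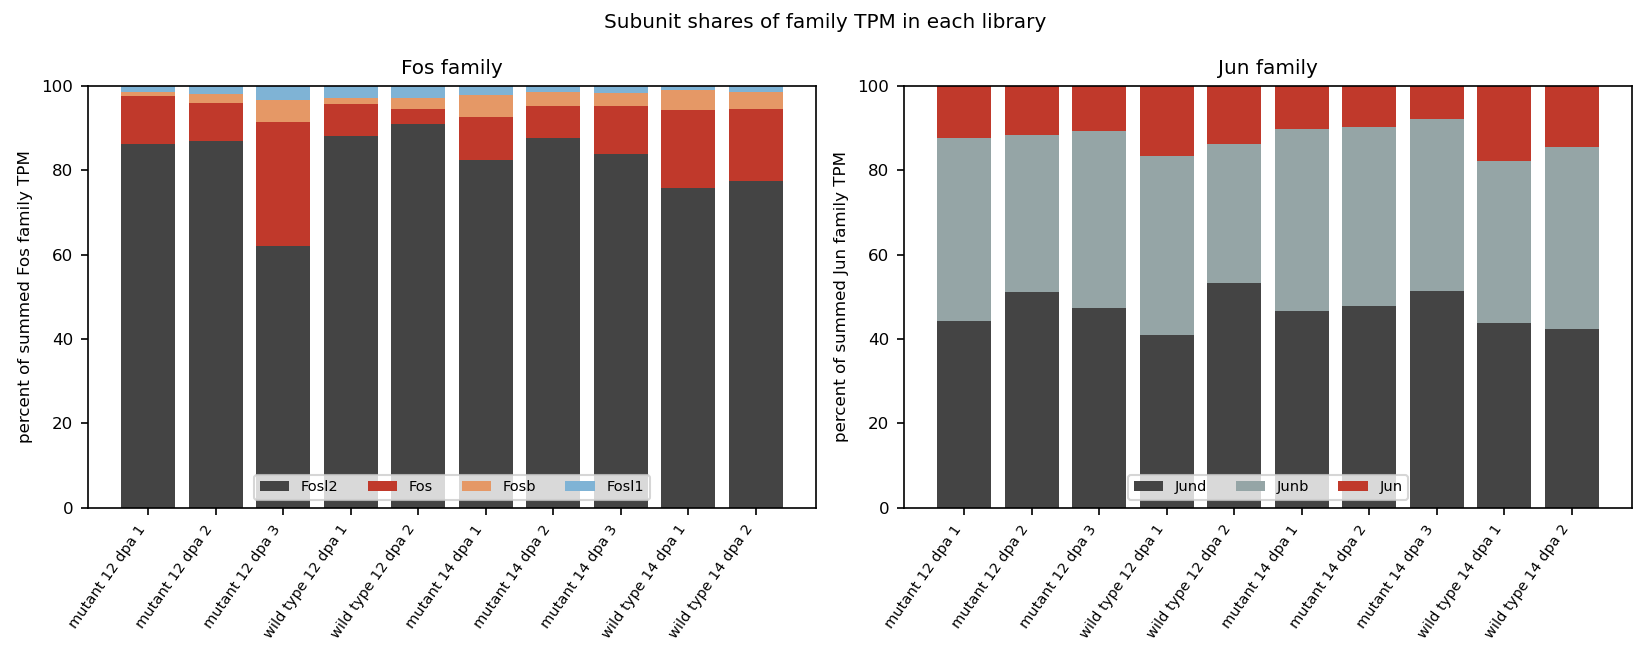
Share of each gene in the summed TPM of the Fos family (left) and the Jun family (right), in percent, with 1 bar per library. The Jun segment at the top of the right panel is 7.80% to 12.3% in the 6 mutant libraries and 13.7% to 17.7% in the 4 wild type libraries, and Fosl2 is the largest Fos family segment in every bar.

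Across both days, Jun was lower and Egr2 and Egr1 were higher in mutants, and the other 7 members did not pass the test. This makes 3 of 10 members past an adjusted p of 0.05, where 43.8% of all 20216 tested genes passed. Whether the members differ from that share was not tested. By direction, 2 of 10 members were higher (background 21.6%) and 1 of 10 was lower (background 22.2%). On log2(TPM + 1) with limma the balance moved, with 6750 genes higher and 2650 lower in mutants (71.8% of the calls higher, against 49.3% with TMM-scaled counts), a median over all genes of 0.14, and 4 members higher (Egr1, Egr2, Fosl2 and Junb) and 0 lower. At 12 dpa 1 member passed (background 16.5%), Jun, which was lower (9.33%), and 0 were higher (7.18%). At 14 dpa 2 members passed (background 33.3%), Egr2, which was higher (16.1%), and Jun, which was lower (17.2%). The median log2 fold change of the members was 0.32 over both days, against 0.02 for all tested genes. It was −0.07 against 0.03 at 12 dpa, and 0.41 against 0.00 at 14 dpa. The counts by day depended on the test. DESeq2 called 3 members at 12 dpa, Fos, Egr2 and Jun, and 6 at 14 dpa, Jun, Egr1, Egr2, Fosl2, Junb and Jund. It also called more of all genes, 4870 at 12 dpa and 7746 at 14 dpa, where edgeR called 3338 and 6725.

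**Figure D2:**
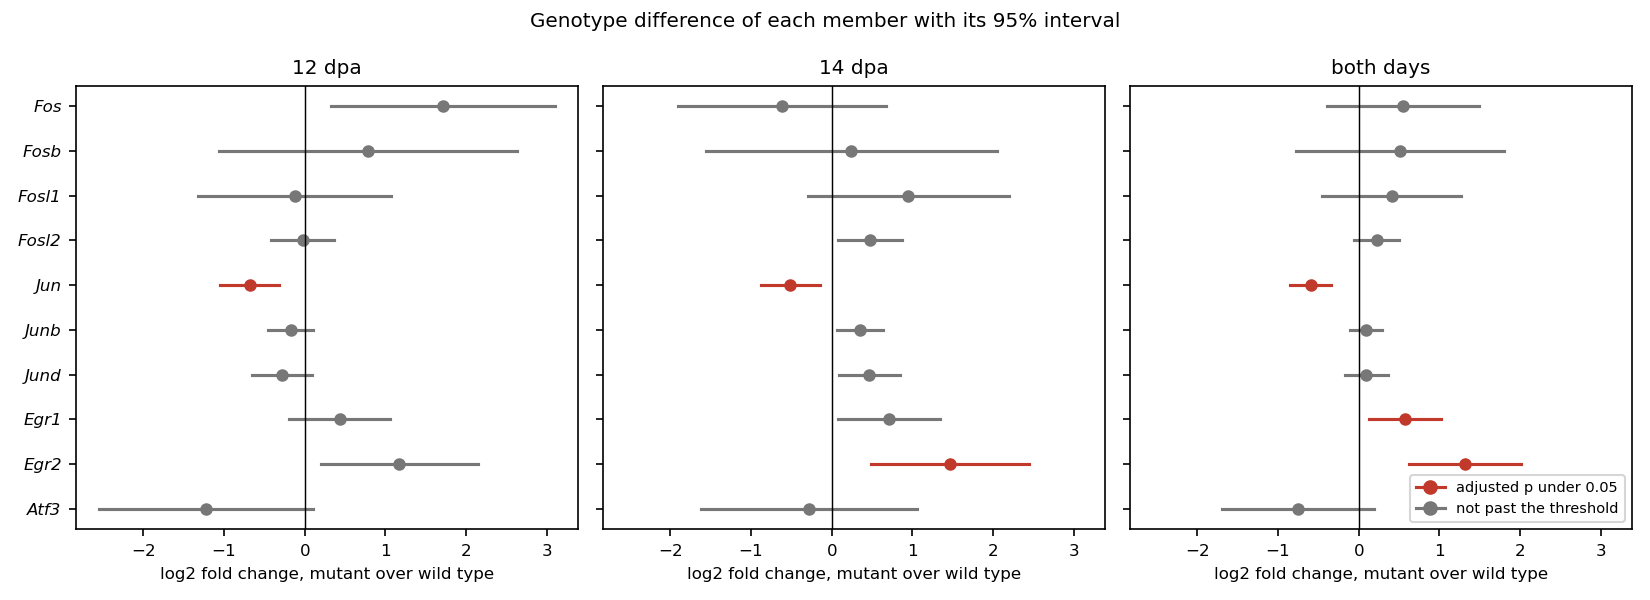
Fitted log2 fold change of mutant over wild type for each member (x axis) on either day and over both, with its 95% interval, red where the adjusted p is under 0.05. Jun lies left of 0 in all 3 panels, Egr2 lies right of 0 in all 3, and Fos lies at 1.71 at 12 dpa and at −0.62 at 14 dpa.

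Jun (ENSMUSG00000052684) encodes c-Jun, the founding member of its family, which can activate its own gene. It had 102, 106 and 99.5 CPM in the mutant 12 dpa libraries, against 176 and 152.5 CPM in wild type at 12 dpa. At 14 dpa it had 114, 96.8 and 85.0 CPM in mutants, against 163 and 118 CPM in wild type. The highest mutant value of each day was thus below the lowest wild type value, by a wide gap at 12 dpa and by a narrow one at 14 dpa. Over both days Jun averaged 101 ± 9.73 CPM in mutants (SD, n = 6) and 153 ± 24.9 CPM in wild type (SD, n = 4). This was a log2 fold change of −0.60 (SE 0.12, adjusted p = 0.00311), a ratio of 0.661. The difference was −0.68 at 12 dpa (SE 0.16, adjusted p = 0.0224) and −0.51 at 14 dpa (SE 0.16, adjusted p = 0.0377). The call over both days was kept when each library was left out in turn (adjusted p 0.00222 to 0.0147). The call of a single day was less firm. The 12 dpa call was lost when any of the 5 libraries of that day was left out (−0.57 to −0.78, adjusted p 0.0545 to 0.124). At 14 dpa Jun no longer passed when the library left out was wild type 14 dpa replicate 1 (−0.26, adjusted p = 0.333), mutant 14 dpa replicate 2 (adjusted p = 0.0744) or mutant 14 dpa replicate 3 (adjusted p = 0.108). With TPM in place of counts the difference over both days was −0.29 (adjusted p = 0.0732).

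The other Jun family members had no call. Junb, which antagonises c-Jun on many promoters, had 191, 180 and 208 CPM in mutants at 12 dpa, against 239 and 196 CPM in wild type. At 14 dpa Junb had 254, 227 and 236 CPM in mutants, against 190 and 184 CPM in wild type. The groups overlapped at 12 dpa, and at 14 dpa all mutant libraries were above both wild type libraries (log2 fold change 0.35, SE 0.13, adjusted p = 0.0567). Jund, the most constitutively expressed Jun gene, followed the same course. It had 177, 225 and 214 CPM in mutants against 210 and 287 CPM in wild type at 12 dpa, and 250, 231 and 270 CPM in mutants against 196 and 166 CPM in wild type at 14 dpa (log2 fold change at 14 dpa 0.47, SE 0.17, adjusted p = 0.0587). With limma on TPM in place of counts, Junb (0.61, adjusted p = 0.0341) and Jund (0.73, adjusted p = 0.0376) passed at 14 dpa. Their differences at 12 dpa turned positive (0.15 and 0.05, not past the threshold). On log2(TPM + 1) the median of all genes was 0.10 at 14 dpa and 0.161 at 12 dpa, so both 12 dpa differences lay below it.

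**Figure D3:**
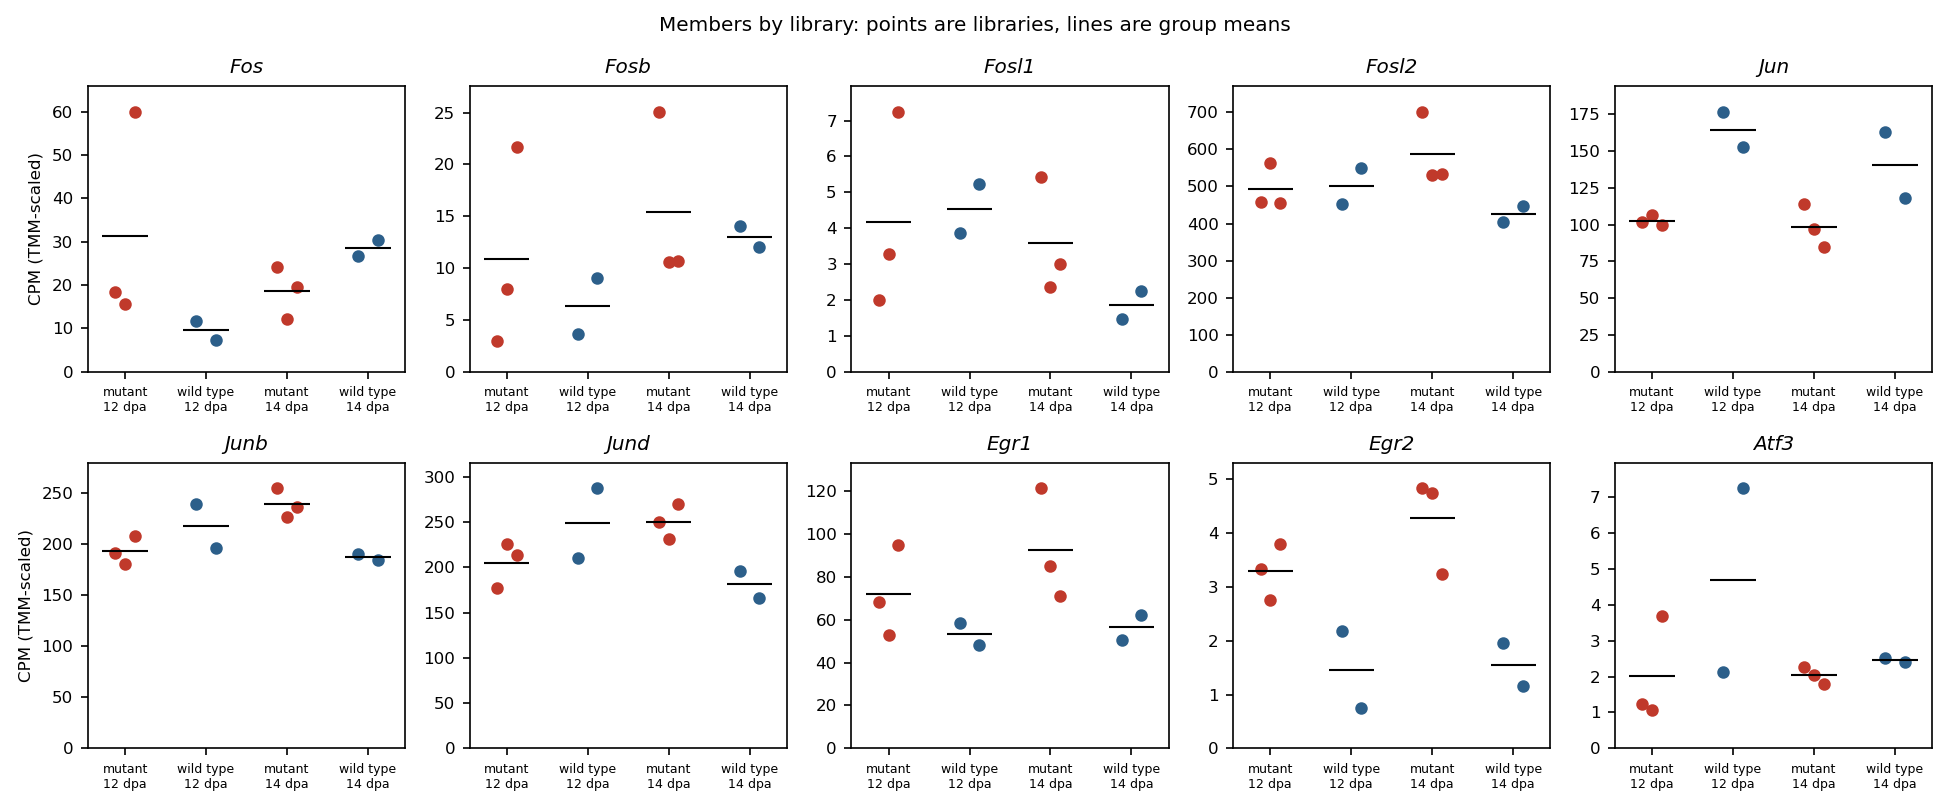
TMM-scaled CPM of each of the 10 members (y axis, each panel with its own scale from 0) by group, with 1 point per library and a line at the group mean. Jun is lower in every mutant library than in any wild type library of the same day, Egr2 is higher, and the Fos points of mutants lie above wild type at 12 dpa and below it at 14 dpa, with 1 mutant 12 dpa library at 59.96 CPM.

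Egr2 (ENSMUSG00000037868, Krox20) encodes a zinc finger factor of the Egr family and was the member with the largest difference over both days. It had 3.33, 2.77 and 3.79 CPM in mutants at 12 dpa, against 2.18 and 0.748 CPM in wild type. At 14 dpa it had 4.83, 4.74 and 3.25 CPM in mutants, against 1.95 and 1.16 CPM in wild type. Every mutant library was above every wild type library, on each day and across the days. The log2 fold change over both days was 1.32 (SE 0.31, adjusted p = 0.00761), a 2.49-fold higher level, and the call was kept with each library left out in turn (adjusted p 0.00231 to 0.0413). By day it was 1.17 at 12 dpa (SE 0.43, adjusted p = 0.0910) and 1.46 at 14 dpa (SE 0.44, adjusted p = 0.0302). The 14 dpa call rested on single libraries, since it was lost without either wild type library or without mutant replicate 1 or 2 of that day, at log2 fold changes of 1.076 to 1.887.

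Egr1 (ENSMUSG00000038418), the rapidly induced Egr gene that is a standard marker of ERK signalling, differed less. It had 68.2, 52.9 and 94.96 CPM in mutants at 12 dpa, against 58.3 and 48.2 CPM in wild type, and the groups overlapped. The 14 dpa values were 121, 84.8 and 70.9 CPM in mutants, against 50.7 and 62.2 CPM in wild type, without overlap. The log2 fold change over both days was 0.57 (SE 0.20, adjusted p = 0.0411). This call was lost in 16 of 22 alternative analyses, among them those without mutant 12 dpa replicate 3 (0.44, adjusted p = 0.0648) and without mutant 14 dpa replicate 1 (0.45, adjusted p = 0.0664). The remaining Egr genes and their corepressors are named for their family, after their values were known. The fold changes over both days were 0.92 for Egr3 (SE 0.19, adjusted p = 0.00473), at 119 ± 39.5 CPM in mutants and 61.2 ± 17.8 CPM in wild type, and 0.95 for the scarce Egr4 (adjusted p = 0.210). Of the corepressors, Nab1 was higher in mutants (0.36, adjusted p = 0.0073) and Nab2 gave −0.06 (adjusted p = 0.763).

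Fos (ENSMUSG00000021250), the prototype immediate early gene, differed in direction between the days without passing the test on either. It had 18.4, 15.7 and 59.96 CPM in mutants at 12 dpa, against 11.7 and 7.43 CPM in wild type. At 14 dpa it had 24.1, 12.3 and 19.5 CPM in mutants, against 26.7 and 30.5 CPM in wild type. In CPM, all mutant libraries were above wild type at 12 dpa and all were below it at 14 dpa. This pattern was shared by 0.618% of tested genes, and 1.36% separated in opposite directions in either order. In TPM the 14 dpa groups overlapped, with mutant replicate 1 at 12.62 TPM and wild type at 9.7 and 12.33 TPM. The fold change on the log2 scale was 1.71 at 12 dpa (SE 0.60, adjusted p = 0.0872) and −0.62 at 14 dpa (SE 0.56, adjusted p = 0.419). The difference between these was −2.33 (SE 0.81, 95% interval −4.20 to −0.46, unadjusted p = 0.0206, adjusted p = 0.546). Without mutant 12 dpa replicate 3 the 12 dpa difference was 0.85 (adjusted p = 0.112). With DESeq2, Fos passed at 12 dpa (1.71, adjusted p = 0.00539).

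Fosl2 had 458, 562 and 456 CPM in mutants at 12 dpa, against 453 and 550 CPM in wild type, so the groups lay on each other. Its 14 dpa values were 701, 530 and 534 CPM in mutants, against 403 and 447 CPM in wild type, without overlap (log2 fold change 0.47, SE 0.18, adjusted p = 0.0655). Fosl1 (Fra-1), an AP-1 gene known for its place in migrating and invasive cells, had 2.00, 3.27 and 7.24 CPM in mutants at 12 dpa, against 3.86 and 5.24 CPM in wild type. In mutants at 14 dpa it had 5.42, 2.37 and 3.00 CPM, against 1.46 and 2.26 CPM in wild type (log2 fold change 0.95, SE 0.55, adjusted p = 0.210). Fosb, the close relative of Fos, spread most among replicates. Its mutant libraries ran from 2.98 to 21.7 CPM at 12 dpa and from 10.6 to 25.1 CPM at 14 dpa, around wild type values of 3.62 and 9.02 CPM at 12 dpa and of 14.1 and 12.0 CPM at 14 dpa. Its difference over both days was 0.51 (SE 0.56, 95% interval −0.78 to 1.80), which leaves either direction possible at this depth and replication.

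Atf3, a stress-induced bZIP gene whose homodimers repress transcription, was the other member with a negative difference over both days (−0.75, SE 0.42, adjusted p = 0.170). It had 1.24, 1.07 and 3.69 CPM in mutants at 12 dpa, against 2.13 and 7.24 CPM in wild type. At 14 dpa it had 2.27, 2.04 and 1.79 CPM in mutants, against 2.52 and 2.41 CPM in wild type, all mutant libraries being below both wild type ones by a small margin. Single libraries decided its call. Without mutant 12 dpa replicate 3, Atf3 was lower in mutants over both days (−1.15, adjusted p = 0.0194), and without wild type 12 dpa replicate 2 the difference was −0.18 (adjusted p = 0.753).

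Counting separations rather than tests, Fos and Egr2 had all mutant libraries above wild type at 12 dpa (background 25.7%) and Jun had all below (background 26%). At 14 dpa Fosl1, Fosl2, Junb, Jund, Egr1 and Egr2 had all mutant libraries above wild type (6 of 10, background 30.8%), and Fos, Jun and Atf3 had all below (3 of 10, background 31.6%). Only Jun and Egr2 among the 10 separated the same way on both days, where 37.2% of genes did. Fosb overlapped on both days.

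The difference between the days' genotype contrasts passed for none of the 10 members, and for 0 of 20216 genes in edgeR (0%). At an unadjusted p under 0.05 it included Fos, Junb and Jund, 3 of 10, where 8.72% of genes were included; DESeq2 called 48 genes and none of the members. The differences between the contrasts were 0.52 for Junb (SE 0.18) and 0.74 for Jund (SE 0.24), opposite in sign to that of Fos. Between 14 and 12 dpa within mutants, no member passed and 0.0346% of genes did; the unadjusted p of Junb was 0.0216, with a log2 fold change of 0.31. Between 14 and 12 dpa within wild type, no member and no gene passed (0%), and at an unadjusted p under 0.05 (8.18% of genes) Fos gave 1.58 (SE 0.64) and Jund gave −0.46 (SE 0.18). DESeq2 called 1482 genes within mutants and 77 within wild type, none of them members.

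**Figure D4:**
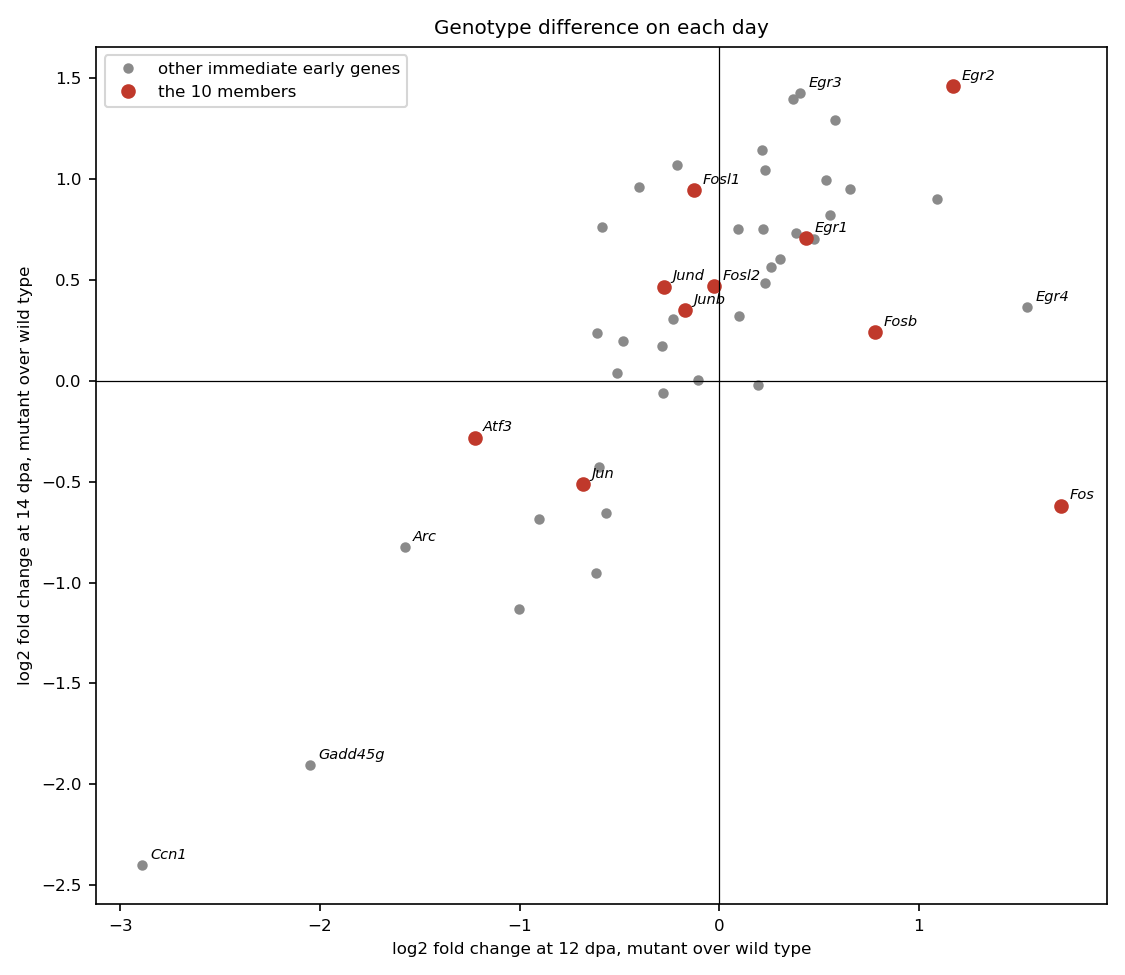
Log2 fold change of mutant over wild type at 12 dpa (x axis) and at 14 dpa (y axis) for the 10 members (red) and 37 other immediate early genes (grey), with 1 point per gene. Fos alone lies far into the lower right, and Egr2 lies in the upper right. Jun lies in the lower left (−0.68 and −0.51), where Ccn1 (−2.89 and −2.40) and Gadd45g (−2.05 and −1.91) lie much further out.

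Other immediate early genes, taken from a list of 38 of which 37 were tested, moved in both directions: 14 were higher and 6 lower in mutants over both days, and 17 did not pass. Among all tested genes 21.6% were higher and 22.2% lower. The median log2 fold change of this list was 0.28, against 0.02 for all genes. The 4 with the smallest adjusted p were Ccn1, Gadd45g, Ier2 and Rhob. Ccn1 (CYR61), a matricellular growth factor gene, averaged 7.69 ± 2.47 CPM in mutants and 50.2 ± 25.3 CPM in wild type (SD, n = 6 and n = 4; log2 fold change −2.65, adjusted p = 0.000193). Gadd45g, a growth arrest and stress gene, averaged 1.98 ± 0.561 CPM in mutants and 7.89 ± 4.51 CPM in wild type (−1.98, adjusted p = 0.000267). Ier2, which encodes a nuclear early response protein, averaged 72.9 ± 7.16 CPM in mutants and 45.1 ± 4.14 CPM in wild type (0.69, adjusted p = 0.000335). Rhob, which encodes an inducible small GTPase, averaged 67.7 ± 8.70 CPM in mutants and 118 ± 14.8 CPM in wild type (−0.80, adjusted p = 0.000776). By day, 1 was higher and 4 lower at 12 dpa (background 7.18% and 9.33%), and 16 were higher and 5 lower at 14 dpa (background 16.1% and 17.2%). Without both mutant libraries that stood apart, 11 were higher and 9 lower over both days. Of all tested genes, 3771 were then higher and 4161 lower, against 4357 and 4489 with all libraries.

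The kinases and factors upstream of these genes (26 genes of the MAP kinase cascades, SRF, its partners and CREB) had 11 members higher, 2 lower and 13 not past the threshold, with a median of 0.13. The shares of all tested genes were 21.6% higher and 22.2% lower. Mapk3, which encodes ERK1, averaged 154 ± 16.8 CPM in mutants and 87.8 ± 11.6 CPM in wild type (log2 fold change 0.81, adjusted p = 0.00041). Mapk14, the gene of p38α, gave 0.56 (adjusted p = 0.00191), Map3k1, a kinase upstream of JNK, gave 0.69 (adjusted p = 0.00209), and the ribosomal S6 kinase gene Rps6ka1 gave 0.48 (adjusted p = 0.00241). Transcript levels do not report kinase activity, which was not measured. Feedback genes of the pathway (15 genes of MAP kinase phosphatases, Sprouty and Spred proteins) had 4 higher, 2 lower and 9 not past the threshold, with a median of −0.07, where 21.6% of all tested genes were higher and 22.2% lower. Spry4, an inhibitor of receptor tyrosine kinase signalling, averaged 1.86 ± 0.630 CPM in mutants and 5.83 ± 1.69 CPM in wild type (−1.67, adjusted p = 0.000222). The phosphatase genes Dusp16 (0.87, adjusted p = 0.00268) and Dusp7 (0.38, adjusted p = 0.0212) and the Sprouty gene Spry1 (0.49, adjusted p = 0.00775) were higher. Without both mutant libraries that stood apart, 2 feedback genes were higher and 5 lower, and 10 upstream genes were higher and 0 lower. All tested genes gave 3771 higher and 4161 lower in that setting.

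Other bZIP genes that can pair with Jun or Fos proteins were mostly without a call: 9 of the 11 tested did not pass, and the median log2 fold change was −0.10. Over all tested genes, 43.8% passed. Mafa, a large Maf gene, averaged 3.32 ± 0.870 CPM in mutants and 5.96 ± 1.70 CPM in wild type (−0.85, adjusted p = 0.0133).

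Genes known as AP-1 targets (24 genes) had 8 higher, 1 lower and 15 not past the threshold over both days, with a median of 0.51. For comparison, 21.6% of all tested genes were higher and 22.2% lower. Sprr2d, a cornified envelope gene, averaged 202 ± 125 CPM in mutants and 9.92 ± 9.70 CPM in wild type (4.54, adjusted p = 0.000757). Krt6a, a wound keratin gene, averaged 12800 ± 2070 CPM in mutants and 6259 ± 1786 CPM in wild type (1.06, adjusted p = 0.00224), and reads of near-identical keratins can be split among them. Il1b, the interleukin-1β gene, averaged 6.13 ± 5.85 CPM in mutants and 0.315 ± 0.240 CPM in wild type (4.26, adjusted p = 0.00466), and the integrin gene Itgb6 gave 0.59 (adjusted p = 0.00541). Several of these genes are also expressed by keratinocytes or neutrophils, whose markers differed between the groups as given next. Without both mutant libraries that stood apart, 8 of the 23 targets tested were higher and 4 lower. All tested genes gave 3771 higher and 4161 lower in that setting. Heat shock and handling genes, which rise with the immediate early genes when tissue is stressed during dissection, had 3 higher, 2 lower and 8 not past the threshold of 13, with a median of 0.07, against the same shares of all genes. By day, 0 were higher and 2 lower at 12 dpa (background 7.18% and 9.33%), and 5 were higher and 2 lower at 14 dpa (background 16.1% and 17.2%). Dnajb1 (0.82, adjusted p = 0.000854) and Hsp90ab1 (0.44, adjusted p = 0.00739) were higher, and Dnaja1 (−0.60, adjusted p = 0.000702) and Hsph1 (−0.72, adjusted p = 0.000835) were lower.

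Marker levels of several cell types differed between the genotypes, where 21.6% of all tested genes were higher and 22.2% lower over both days. Over both days, 11 of 15 keratinocyte markers were higher and 1 lower in mutants, and their summed level was 76460 to 105500 CPM in mutants and 51030 to 71870 CPM in wild type at 12 dpa, and 100600 to 153900 CPM in mutants and 57020 to 74290 CPM in wild type at 14 dpa. Of 12 blastema fibroblast markers, 11 were lower and none higher. Their summed levels were 5092 to 7007 CPM in mutants and 21090 to 29640 CPM in wild type at 12 dpa. At 14 dpa they were 2268 to 8154 CPM in mutants and 15590 to 20320 CPM in wild type. Lrrc15 made up much of the wild type sums, averaging 9225 CPM at 12 dpa and 4528 CPM at 14 dpa. In mutants it averaged 127 and 58.25 CPM. Its log2 fold change over both days was −6.23, and those of the other markers ran from −0.58 to −3.01. All 8 endothelial markers, 10 of 11 nail markers, 6 of 8 osteoblast markers and 5 of 8 macrophage markers were lower, and none of these 4 lists had a higher one. The nail marker Gprc5d was close to 0 in mutants, at 0.00807 ± 0.0126 CPM, against 309 ± 209 CPM in wild type. Of 8 neutrophil markers, 4 were higher over both days, with summed levels of 321.2 to 630.8 CPM in mutants and 13.7 to 19.99 CPM in wild type at 12 dpa, and of 55.1 to 94.5 CPM in mutants and 9.47 to 16.0 CPM in wild type at 14 dpa. S100a8 and S100a9 made up most of these sums, at 201 ± 58.6 and 286 ± 99.6 CPM in mutants and 8.96 ± 1.61 and 3.66 ± 1.49 CPM in wild type at 12 dpa. At 14 dpa 3 neutrophil markers were higher and 2 were lower, named here after their values were seen. They were the granule protein genes Camp, at 0 in all mutant libraries of that day and at 0.131 and 0.413 CPM in wild type, and Ltf, at 0.0982 ± 0.0206 CPM in mutants and 0.936 ± 0.850 CPM in wild type (−3.23, adjusted p = 0.0128). Ly6g was below the filter. The defining markers of the labelled blastema were present in wild type, with Msx1 at 39.3 ± 3.19 CPM there and at 9.38 ± 3.38 CPM in mutants. In such bulk tissue, fewer cells of a type and less RNA per cell cannot be told apart, and the part of these marker differences in those of Jun, Egr1 and Egr2 was not tested.

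The 2 libraries that stood apart shared Fosb, Fosl1, Egr1 and Egr2 among the members they led, and differed in other gene groups. Mutant 12 dpa replicate 3 was the highest of the 5 libraries of its day for 5 members, Fos, Fosb, Fosl1, Egr1 and Egr2 (background 20.5%), for 14 of 24 AP-1 targets and 12 of 37 other immediate early genes, for 2 of 13 heat shock genes and for 5 of 8 neutrophil markers, whose sum of 539.7 CPM lay within the range of its group. Its macrophage marker sum was the highest of that day, 115.7 CPM, against 64.76 and 80.88 CPM in wild type. Replicate 3 led in only 2 of 8 macrophage markers, Csf1r (55.97 CPM) and Cd14 (25.88 CPM). Adgre1, Mrc1, C1qa, C1qb and C1qc were lower in all mutant 12 dpa libraries than in both wild type ones. These markers are named after their values were seen. The AP-1 target sum of replicate 3 (17620 CPM) was the lowest of its group. Mutant 14 dpa replicate 1 was the highest of its day for 6 members, Fosb, Fosl1, Fosl2, Junb, Egr1 and Egr2 (background 26.5%), for 20 of 37 other immediate early genes, 7 of 13 heat shock genes and 10 of 15 keratinocyte markers. It also had the lowest fibroblast marker sum (2268 CPM) and the lowest osteoblast marker sum (20.05 CPM) of its group. Without both libraries, Jun (−0.64, adjusted p = 0.00425) and Egr2 (1.21, adjusted p = 0.0269) kept their calls over both days, Egr1 gave 0.33 (adjusted p = 0.0677), and Atf3 was lower in mutants (−1.19, adjusted p = 0.0291). Fos gave −0.01 and Fosb gave −0.25, neither past the threshold.

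Among 13960 other genes with a mean of at least 1 CPM, those whose level ran most like a member over the 10 libraries were named by the root mean square difference of centred log2 CPM, as a description only. For Jun they were 2810403A07Rik (0.14), Tbx3 (0.14) and Tle4 (0.16), where the spread of Jun itself was 0.34. For Egr2 (own spread 0.82) they were Cxcr2 (0.28), a chemokine receptor gene also on the neutrophil list, Elovl7 (0.30) and Mettl7a1 (0.30). For Fos (own spread 0.80) they were Gm35558 (0.46), Cd14 (0.50) and Lrg1 (0.51), so no gene followed Fos closely. For Atf3 the closest was Nr4a1 (0.36, against an own spread of 0.73), another immediate early gene. For Egr1 it was Gm9333 (0.17, own spread 0.41), for Junb Sertad1 (0.07, own spread 0.17) and for Fosl2 Arhgef10l (0.07, own spread 0.22).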

How the data were processed

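RNA was measured in 10 libraries with a stranded total RNA kit, per the labels' protocols. The authors deposited an expected count and a TPM value for each gene in each library, in RSEM's layout per the file headers. FastQC, STAR 2.7.8a, RSEM 1.3.0 and GRCm39 appear in the submitters' processing notes. No normalization had been applied to the authors' expected counts, of which 13.9% were not whole. The authors' TPM values are scaled by length and to a fixed library total, so they shift with the share of non-coding RNA.

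Groups came from the titles. Rounded expected counts entered edgeR 4.0.16 in R 4.3.3 (limma 3.58.1): filterByExpr (minimum count 10, minimum total 15) left 20216 genes, all 10 members among them, and TMM factors, 1 quasi-likelihood fit over the 4 groups and robust dispersions (common dispersion 0.0767) followed. Mutants were set against wild type on each day and as the mean of the 2 days, the days' contrasts were set against each other, and 14 dpa was set against 12 dpa in each genotype. Benjamini-Hochberg adjustment ran over all genes tested (threshold 0.05), and adjusted p-values without another tool's name come from this fit. CPM use TMM-scaled library sizes. A difference is said to be without overlap when all mutant libraries lie on the same side of all wild type libraries of that day.

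Alternatives were RLE and upper quartile factors, no filter or a strict one (1 CPM in 2 libraries), DESeq2 1.42.0, limma on log2(TPM + 1) and log2(TPM + 0.1), a replicate block, sex as covariate, the genotype tag in place of the title, protein-coding genes only, and each library left out in turn. Sex was called from the counts, as male at 500 or more Y-linked counts. Wild type 14 dpa replicate 1, called male at 12561 such counts, also held 1292 Xist counts, against 11 to 46 in the other libraries called male. An analysis without mutant 12 dpa replicate 3 and mutant 14 dpa replicate 1 was added after seeing the data. The members and gene lists were chosen with earlier results of these data known. All members were described; from each other list, up to 4 genes with the smallest adjusted p over both days among those past the threshold were named, and others are marked. Names came from a GENCODE M21 table and the deposited table; Krt85 was not analysed here. Where titles and descriptions number the wild type 14 dpa pair differently, the titles were followed. Nothing says that replicates came from separate animals, so p-values reflect only how these libraries spread, and part of that may be technical. One gene of the list of other bZIP genes is not reported here.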

Additional observations from a re-analysis of the deposited data

Results flagged for a closer look

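Fos is singled out because its genotype difference had opposite signs on the 2 days. In CPM, every mutant library was above wild type at 12 dpa and every mutant library was below it at 14 dpa. In TPM the 14 dpa libraries overlapped. The difference between the 14 dpa and 12 dpa log2 fold changes was −2.33 (SE 0.81, edgeR quasi-likelihood test, unadjusted p = 0.0206, adjusted p = 0.546), so the test of the difference itself did not pass. The highest of the mutant 12 dpa values, 59.96 CPM in replicate 3, carried much of the 12 dpa difference, which was 1.71 with that library and 0.85 without it.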

How the results depend on the processing

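Over both days the calls of Jun and Egr2 kept their direction under all 22 alternatives, and Egr1 kept its call in 6 of them. Jun lost its call with limma on TPM (−0.29 and −0.30, adjusted p 0.0732 and 0.0741) and, at 0.0652, with the tagged library placed in wild type, where Egr2 also lost it (0.88, adjusted p = 0.218); Fosl2 and Junb passed on the TPM scale (0.49 and 0.38 at a pseudocount of 1). The counts that follow are of all genes, then of members. With the tagged library placed in wild type, 0 genes and 0 members passed over both days, at 12 dpa and at 14 dpa, and 2 genes passed between the days in mutants; the cause was not tested. DESeq2 called 4870 genes and 3 members at 12 dpa, and 7746 genes and 6 members at 14 dpa. It called 48 genes for the difference between days, 1482 between the days in mutants and 77 in wild type. Without both mutant libraries that stand apart, 3173 genes and 2 members passed at 12 dpa, and 5050 genes and 1 member at 14 dpa. The same 3 day contrasts then gave 1, 12 and 8 genes. Of the other settings, the difference between days gave 1 gene with no filter and 1 with log2(TPM + 1). The 7 genes between the days in mutants became 16 with upper quartile factors, 45 with no filter, 19 with the strict filter, 313 and 337 with TPM pseudocounts of 1 and 0.1, 18 with sex as covariate and 26 with protein-coding genes. The 0 genes between the days in wild type became 3, 1 and 2 with both TPM pseudocounts and with sex.

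The replicate block gave 6974 genes and 2 members over both days, 1928 and 1 at 12 dpa, 4894 and 1 at 14 dpa, 1 gene between the days in mutants, and 0 genes and 0 members elsewhere; Egr1 gave 0.52 (adjusted p = 0.112). Correlations of the deviations from group means were −0.121 to 0.0863 over 13 same-numbered pairs, and −0.0863 to 0.154 over 24 differently numbered pairs. Deviations in a group of 2 libraries mirror each other, so the values with wild type cannot show whether the numbers pair libraries.

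Leaving out 1 library at a time gave 6772 to 8799 genes and 2 to 3 members over both days, 771 to 3949 and 0 to 1 at 12 dpa, and 2571 to 6513 and 0 to 4 at 14 dpa. It gave 0 to 3 genes for the difference between days, 1 to 24 between the days in mutants and 0 to 4 in wild type. Signs turned in these fits for uncalled members: Fosb ran from −0.19 to 1.58 at 12 dpa and from −0.30 to 0.45 at 14 dpa, Fosl1 from −0.77 to 0.22 and Fosl2 from −0.16 to 0.12 at 12 dpa, and Jund from −0.0044 to 0.22 over both days.

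Other turned signs, none past the threshold, came without both libraries that stand apart (over both days Fos −0.0068, Fosb −0.25 and Fosl1 −0.13; at 12 dpa Fosb −0.21 and Fosl2 0.027; at 14 dpa Fosb −0.30), with the tagged library moved (over both days Fosl1 −0.15 and Junb −0.014; at 14 dpa Fosb −0.68, Fosl1 −0.18 and Egr1 −0.0030), with sex (Fosb −0.045 at 14 dpa) and with the block (Fosl2 0.035 at 12 dpa). On TPM with pseudocounts of 1 and 0.1 they were, at 12 dpa, Fosl2 0.27 and 0.27, Junb 0.15 and 0.15, Jund 0.051 and 0.051 and, for 1 alone, Fosl1 0.0012, and, at 14 dpa, Atf3 0.089 and 0.14. Over both days the widest intervals were those of Fosb, Atf3, Fos, Fosl1 and Egr2, with SE from 0.56 for Fosb to 0.31 for Egr2. With 2 wild type libraries a day, every contrast is limited.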
